A study of Mus musculus with 6 samples.

Results

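Imprinted genes are described here as a list of 36 genes, followed across all 6 arrays of a study of the transcription factor Snail in differentiating mouse embryonic stem cells (ESCs). Every probe set whose only gene symbol in the array annotation was a member was used, which gave 93 of 34945 probe sets with 1 symbol and 34 of the 36 genes. H19 and Zrsr1 had no probe set of their own, and a probe set annotated to both H19 and Mir675 was left out. Of the 34 genes, 28 reached the low-signal limit described below and were tested, and 6 (Peg10, Nnat, Usp29, Kcnq1, Zim1 and Asb4) did not. By the parental copy that textbook knowledge assigns, 17 members are paternally expressed (16 measured, 13 tested) and 17 maternally expressed (16 measured, 13 tested). The other 2, Gnas and Grb10, are kept apart because the expressed copy depends on the promoter or the tissue. In some of the other members too the restriction holds only in certain tissues. The classes therefore do not state which copy these cells expressed.

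Genomic imprinting restricts expression of a gene to the copy inherited from the mother or from the father. Most imprinted genes lie in clusters in which a stretch of DNA methylated in a parent's germ line controls several neighbours, often through a long noncoding RNA. Many of them act on fetal and placental growth, and in some the restriction holds only in certain tissues. The arrays do not separate the parental copies, so the values below are the total signal of both.

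The cells were A2.Snail ESCs, in which doxycycline (dox) switches on Snail from an inducible promoter. Cultures were grown as embryoid bodies in 10% fetal calf serum with Dickkopf (DKK), a Wnt inhibitor present in every sample. RNA was collected at days 2.25, 2.5 and 3, that is 6, 12 and 24 hours after day 2, without dox (DKK) or with dox at 250 ng/mL from day 2 (DKK + dox). Each of the 6 conditions was 1 Affymetrix array. The DKK cultures carry the same inducible Snail as the DKK + dox cultures, no array had dox without the Snail insert, and so dox and Snail cannot be told apart. The number of clones behind the line is not stated. Parent cells were kept on mouse fibroblast feeders, and the paper describes 1 feeder-free passage of the ESCs ahead of differentiation.

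Values are the authors' dChip intensities, in arbitrary linear units. Differences are DKK + dox minus DKK unless stated, on a log2 scale after 20.6, the 25th percentile of all values, was added to each intensity, which makes differences of dim genes smaller. A gene was represented by its brightest probe set and was tested if it exceeded 37.2 (the pooled 40th percentile, called the low-signal limit) on 1 array or more. The test was a limma fit over 14755 genes of a dox effect set proportional to elapsed hours, quoted at its 24 hour size. "Rose" and "fell" are used for an adjusted p under 0.05 in that fit. It rests on 6 arrays and 2 residual degrees of freedom, so its p-values measure how far the arrays depart from the trend and not the spread between replicate cultures. A difference between a pair of arrays carries no test. As a yardstick, the 14755 genes had a standard deviation of 0.27 between the 6 hour arrays, and 95 percent of them lay within 0.58.

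The arrays were alike in scale, with medians from 53.5 to 63.7 and 37.5 to 41.3 percent of probe sets at or under the low-signal limit. The probe set of Snai1, the gene of Snail, was under that limit on all 6 arrays, from 10.9 to 32.9 in DKK and from 14.5 to 29.6 in DKK + dox. The position of this probe set relative to the insert was not analysed here, and it therefore gives no check of the induction. Hprt, the other gene named as a check, read 405, 330 and 331 in DKK and 603, 1065 and 2293 with dox. It rose (fitted difference 2.80, standard error 0.14, limma adjusted p = 0.000858), and the reason was not tested. Cdh1 (E-cadherin), which Snail is known to repress, was 4481, 5957 and 6222 in the DKK arrays against 3465, 2868 and 3063 with dox, and fell (fitted difference -1.25, standard error 0.17, limma adjusted p = 0.00456). All 15 pluripotency and epiblast genes listed were above the low-signal limit on some array.

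With dox, 7 of the 28 imprinted genes tested rose (Igf2, Peg3, Grb10, Ndn, Rian, Gnas and Meg3), 3 fell (Calcr, Ppp1r9a and Snrpn) and 18 did not pass. Ndn (0.48), Rian (0.33), Gnas (0.25), Meg3 (0.21) and Snrpn (-0.52) lay at 24 hours within the 0.58 yardstick of the 6 hour pair. The other genes that passed lay beyond it. Among all genes tested, 8.32 percent rose and 6.38 percent fell. The changes went in both directions within each parental class: of 13 paternally expressed genes 3 rose and 1 fell, and of 13 maternally expressed genes 2 rose and 2 fell. Gnas and Grb10 both rose. The median difference at 24 hours was 0.14 over the 28 members, 0.02 over the paternally and 0.13 over the maternally expressed ones, beside 0.02 over all genes.

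Over members and over all genes the differences widened after 6 hours. At 6 hours no member was 2-fold apart in either direction, beside 0.271 percent of all genes 2-fold higher and 0.468 percent 2-fold lower with dox. At 12 hours Igf2 and Peg3 were at least 2-fold higher (1.27 percent of all genes), and Calcr and Ppp1r9a at least 2-fold lower (2.25 percent). At 24 hours Igf2 and Peg3 were again past 2-fold (3.12 percent of all genes) and so was Calcr in the other direction (2.2 percent). Members beyond the 0.58 of the 6 hour pair numbered 2 at 6 hours, 6 at 12 hours and 6 at 24 hours, beside 5.0, 12.5 and 16.3 percent of all genes. The share of members past a fold here comes from 28 genes, several of which share a domain.

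**Figure D1:**
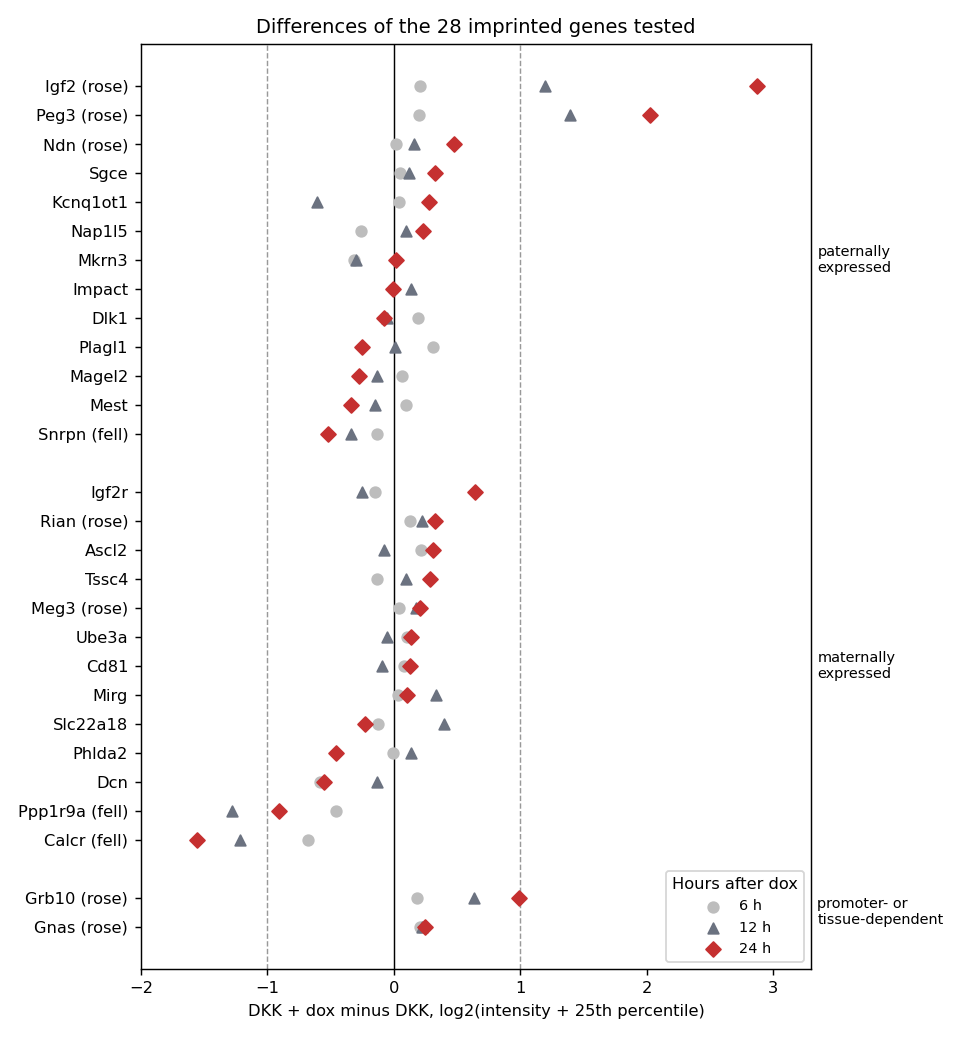
DKK + dox minus DKK at 6, 12 and 24 hours (log2 scale, 1 point per pair of arrays) for the 28 imprinted genes tested, grouped by parental expression, with dashed lines at 2-fold and the limma call beside the name. Igf2 reaches 2.87 and Peg3 2.02 at 24 hours, Calcr lies lowest at -1.56, and most other members lie between the dashed lines.

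Igf2, which encodes the fetal growth factor IGF2 and is expressed from the paternal copy, showed the largest difference of any member at 24 hours. Its intensity was 48.6, 214 and 206 without dox and 59.5, 516 and 1640.4 with it, at 6, 12 and 24 hours in turn. The gene was thus already higher at 12 than at 6 hours without dox and then level, while with dox it was higher again at 24 hours. The intensity ratio of DKK + dox over DKK at 24 hours was 7.97. The differences were 0.21, 1.19 and 2.87, and the fitted difference was 2.69 (standard error 0.22, limma adjusted p = 0.00139). A dimmer Igf2 probe set did not share the pattern: it read 46.8, 67.9 and 69.5 in the DKK arrays against 71.0, 61.5 and 64.7 with dox, a difference of -0.08 at 24 hours. Which of the Igf2 transcripts each probe set reads was not analysed here.

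RefSeq (GRCm38.p6) lists 4 start sites for Igf2 on the minus strand of chromosome 7, and the 250 bases before 1 of them are shown because Igf2 rose most. The window is chr7:142658805-142659054, and capitals mark its 22 CpG dinucleotides, the sites at which mammalian DNA is methylated.
Igf2: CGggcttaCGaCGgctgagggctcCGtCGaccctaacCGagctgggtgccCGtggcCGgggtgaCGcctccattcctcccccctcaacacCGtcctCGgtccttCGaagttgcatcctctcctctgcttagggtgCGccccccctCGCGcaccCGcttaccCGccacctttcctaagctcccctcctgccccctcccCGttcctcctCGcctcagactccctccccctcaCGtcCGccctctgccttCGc
The windows before the other Igf2 start sites held 1, 6 and 10 CpG dinucleotides, and the one shown was chosen because it held the most. Which start site these cells used was not measured. The median over all 32851 RefSeq windows of this length was 6, and over the 46 windows of imprinted genes it was 10.

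Of 14 genes of the IGF pathway tested, 2 rose, 1 fell and 11 did not pass. At 24 hours 10 of the 14 were higher with dox, beside 7712 of all 14755 genes. Of the 14, 2 were at least 2-fold higher, beside 3.12 percent of all genes. The median was 0.28, beside 0.02 over all genes. Igfbp4, which encodes a secreted protein that binds IGFs, read 182, 312 and 232 without dox and 283, 1316 and 1999.7 with it, and rose by a fitted 3.16 (standard error 0.20, limma adjusted p = 0.000858). Igfbp2, another IGF-binding protein, fell (fitted difference -0.87, adjusted p = 0.00658 in the same limma fit). Igf2bp3, whose protein binds Igf2 mRNA, rose by a fitted 0.49 (limma adjusted p = 0.0229), with 0.385 at 24 hours, within the 0.58 yardstick. Igf1, which encodes the related growth factor IGF1, read 21.2, 35.0 and 31.2 without dox and 33.0, 28.4 and 151 with it. It exceeded the low-signal limit on the last of these arrays alone and did not pass (difference at 24 hours 1.73, fitted 1.31, limma adjusted p = 0.0607). Irs2, an adaptor of the insulin and IGF1 receptors, did not pass either, at 0.66 at 24 hours (limma adjusted p = 0.629). It too exceeded the low-signal limit on the DKK + dox array at 24 hours alone, at 46.8.

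Igf2r, the maternally expressed receptor that carries IGF2 to lysosomes, was lower or level with dox at first and higher at 24 hours. It read 234, 234 and 239.9 in the DKK arrays against 209, 193 and 387 with dox. The last array stands above the other 5, with a difference of 0.65 after -0.15 and -0.25. Its second probe set gave -0.21, -0.13 and 0.58. Igf2r did not pass (fitted difference 0.37, standard error 0.23, limma adjusted p = 0.352).

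Peg3, a paternally expressed zinc finger gene, was higher with dox at 12 and 24 hours. In its brightest probe set the intensity was 534, 581 and 541 without dox and 615, 1557 and 2265 with it, so that the DKK arrays spanned 534 to 581 and both late dox arrays lay above them. The intensity ratio at 24 hours was 4.18. Peg3 rose by a fitted 2.11 (standard error 0.18, limma adjusted p = 0.00148). The 2 other bright probe sets had differences of 2.15 and 1.90 at 24 hours. Without dox they went opposite ways, the former from 504 to 277 and the latter from 114 to 183 between 6 and 24 hours, so that no course of Peg3 over time in DKK can be given. Another 2 were under the low-signal limit on all arrays.

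Usp29, which starts head to head with Peg3 from the opposite strand, was at 16.6 or less over the 6 arrays in its brighter probe set. Zim1, the maternally expressed zinc finger gene of this domain, read from 9.68 to 23.6. Both stayed under the low-signal limit of 37.2, so Peg3 was the only member of the domain that could be tested. The RefSeq windows of Peg3 and Usp29, which also take in the start of the transcript, overlap by 263 bases. The 250 bases before the Peg3 start, at chr7:6730420-6730669 on the minus strand, are shown for this reason, with their 8 CpG dinucleotides in capitals.
Peg3: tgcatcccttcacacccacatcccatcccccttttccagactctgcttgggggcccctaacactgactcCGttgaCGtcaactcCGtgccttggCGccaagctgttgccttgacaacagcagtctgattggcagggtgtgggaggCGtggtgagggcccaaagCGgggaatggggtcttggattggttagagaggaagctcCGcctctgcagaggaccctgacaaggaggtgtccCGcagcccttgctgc

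**Figure D2:**
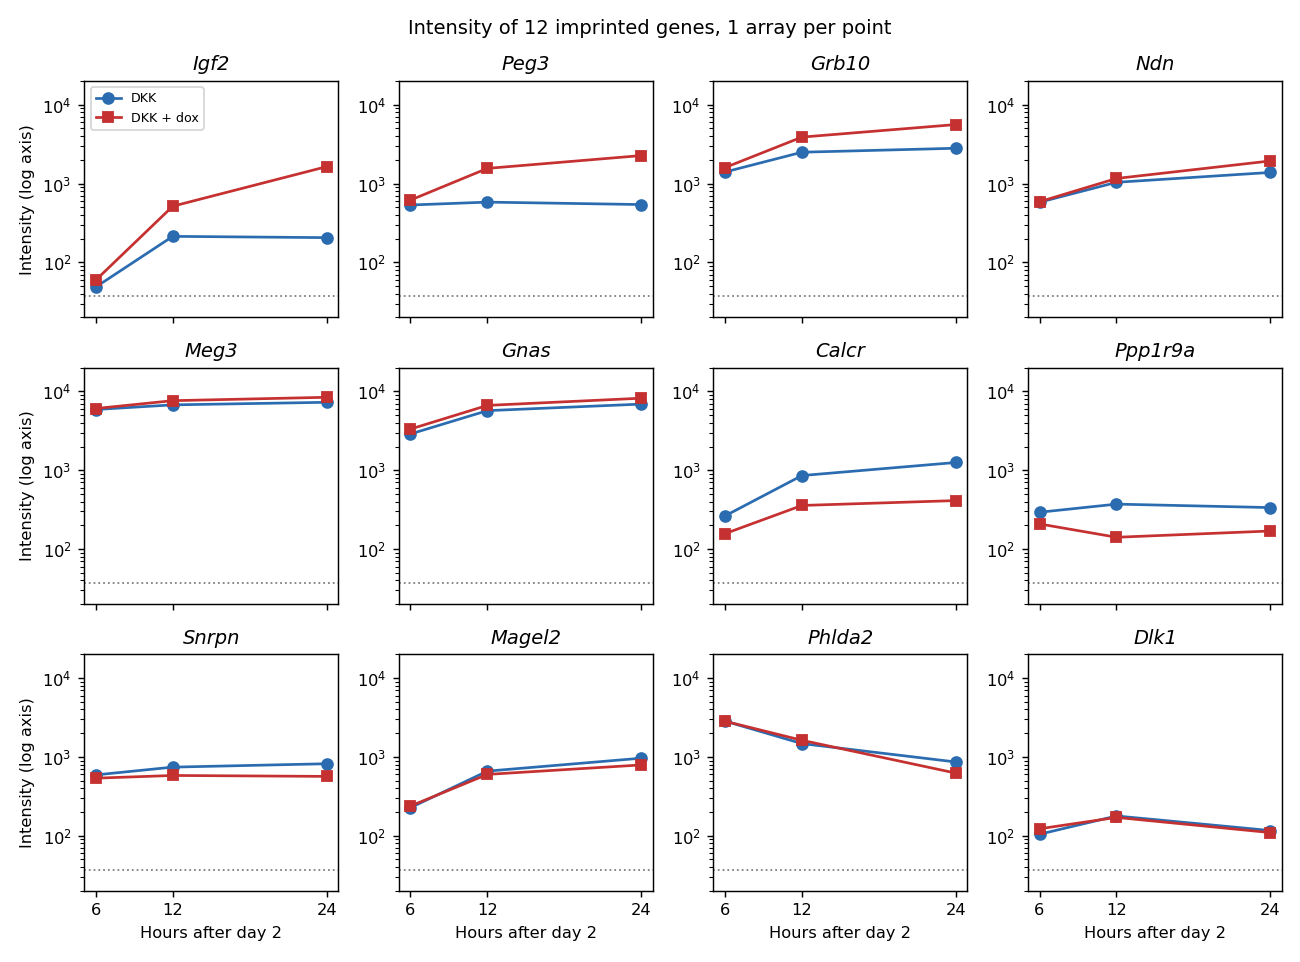
Intensity (log axis, arbitrary units) of 12 imprinted genes at 6, 12 and 24 hours after day 2, with 1 array per point, blue for DKK, red for DKK + dox, and the low-signal limit of 37.2 dotted. With dox, Igf2 ends at 1640.4 and Peg3 at 2265, Calcr ends at 412 against 1254 without dox, Dlk1 ends at 109.5 against 116, and Phlda2, which did not pass, at 623 against 862.

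Grb10, an adaptor that restrains signalling by the insulin and IGF1 receptors, rose. It read 1401, 2498 and 2805 in the DKK arrays against 1594, 3886 and 5608 with dox. The gene was higher at each later time in both conditions, and further so with dox, where the 24 hour intensity was 2.00 times that of DKK. Its differences of 0.18, 0.63 and 0.99 gave a fitted 1.03 (standard error 0.08, limma adjusted p = 0.00117). The 2 dimmer probe sets, both near the low-signal limit at 6 hours, had differences of 0.84 and 0.92 at 24 hours.

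Gnas encodes the stimulatory G protein alpha subunit and several other products from separate promoters. Its brightest probe set read 2882, 5705 and 6909 without dox and 3326, 6651 and 8207 with it. Each dox array was above its partner by a similar step of 0.21, 0.22 and 0.25, and the fitted difference was 0.31 (standard error 0.07, limma adjusted p = 0.0289). The 4 other probe sets, with mean intensities from 19.2 to 59.4, ranged from -0.84 to 0.06 at 24 hours. Without the 12 hour pair the limma adjusted p was 0.0575, without the 24 hour pair 0.0658, and with arrays centred on the median 0.0878.

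Calcr, the calcitonin receptor gene, in the cluster of Sgce and Peg10 on chromosome 6, was the member that fell most. Its intensity was 263, 856 and 1254 in the DKK arrays against 157, 357 and 412 with dox. The signal was higher at each later time in both conditions, and lower with dox than without at all 3 times. The differences were -0.68, -1.21 and -1.56, and the DKK intensity at 24 hours was 3.04 times that with dox. The fitted difference was -1.78 (standard error 0.19, limma adjusted p = 0.00231), from the gene's only probe set.

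Ppp1r9a, which encodes the actin-binding protein neurabin, fell as well and reached its lowest point at 12 hours. It read 293, 372 and 336 without dox and 208, 141 and 169 with it. The differences were -0.45, -1.28 and -0.91, with a fitted difference of -1.27 (standard error 0.28, limma adjusted p = 0.0256). A second probe set gave -0.75, -1.79 and -1.26, and 3 dim ones were at -0.17, -0.35 and -0.47 at 24 hours. Without the 6 hour pair the adjusted p of the limma fit was 0.0529.

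No other gene of that cluster among the 36 members passed. Casd1, an imprinted gene outside the 36 that lies beside Sgce, rose by a fitted 0.61 (standard error 0.13, limma adjusted p = 0.0238). Its difference at 24 hours was 0.535, within the 0.58 yardstick. Sgce, the epsilon sarcoglycan gene, read 165, 139 and 156 in the DKK arrays against 172, 153 and 201 with dox and did not pass (fitted difference 0.31, limma adjusted p = 0.271). Peg10, derived from a retrotransposon, stayed between 7.51 and 18.7, under the low-signal limit. Asb4, a maternally expressed member, was at 36.7 in DKK + dox at 24 hours and at 25.6 or less elsewhere, and was not tested.

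Snail binds the E-box CAGGTG, which reads CACCTG on the other strand. A search of both strands found it in 7 of the 46 windows of 250 bases before the start sites of 30 imprinted genes (15.2 percent) and in 17.2 percent of all windows. Of the 23 windows of the members that passed, 3 held it (13.04 percent), those of Calcr, Gnas and Snrpn. The Calcr window that holds it, 1 of 2 for the gene, is chr6:3764714-3764963 on the minus strand, with the E-box in capitals and its first base 115 bases before the start site.
Calcr: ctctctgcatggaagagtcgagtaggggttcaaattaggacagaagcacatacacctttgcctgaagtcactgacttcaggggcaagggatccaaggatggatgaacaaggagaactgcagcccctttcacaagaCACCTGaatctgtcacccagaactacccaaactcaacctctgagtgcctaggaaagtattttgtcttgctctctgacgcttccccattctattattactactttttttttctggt
A match in these letters is a description of the sequence, and binding was not measured. Kcnq1, H19, Impact, Sgce, Dcn and Peg10 had no window in the table used here.

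Of the 5 genes of the Snrpn to Ube3a domain, 1 rose with dox, 1 fell and 3 did not pass. Ndn, a paternally expressed MAGE family gene, read 579, 1037 and 1384 without dox and 588, 1160.4 and 1936 with it, and rose by 0.43 (standard error 0.10, limma adjusted p = 0.0286). Snrpn, which encodes a core splicing protein, read 591, 742 and 819 in the DKK arrays against 537, 582 and 566 with dox, and fell (fitted difference -0.55, standard error 0.11, limma adjusted p = 0.0182). Without the 6 hour pair, in a fit on fewer arrays, the fitted differences were 0.45 for Ndn and -0.55 for Snrpn, with limma adjusted p = 0.0512 and 0.0519. Without the 24 hour pair they were 0.27 and -0.65, with limma adjusted p = 0.502 and 0.147. Of 8 Ndn probe sets 7 were higher with dox at 24 hours and a dim one was at -0.36.

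Magel2, the other paternally expressed MAGE gene beside Ndn, read 227, 660.2 and 964 without dox and 238, 600 and 791 with it, with a fitted difference of -0.25 (limma adjusted p = 0.229). The Magel2 arrays with dox lay below their partners at 12 and 24 hours, where the Ndn arrays lay above theirs. Mkrn3, a RING finger gene, stayed between 80.2 and 126, and Ube3a, the maternally expressed ubiquitin ligase gene, between 1938 and 2372. Neither passed (limma adjusted p = 0.71 and 0.469).

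In the Dlk1 to Meg3 domain, the noncoding RNAs of the maternal copy were slightly higher with dox. Meg3 read 5897, 6754 and 7282 in the DKK arrays against 6071, 7638 and 8430 with dox and rose by 0.24 (standard error 0.05, limma adjusted p = 0.0237). Rian, the precursor of a cluster of small nucleolar RNAs, read 1938, 1619 and 2072 without dox and 2117, 1894 and 2609 with it and rose by 0.36 (standard error 0.08, limma adjusted p = 0.021). These steps are smaller than the 0.58 that bounded 95 percent of genes in the 6 hour pair. Of 11 Meg3 probe sets 9 were higher at 24 hours, between -0.19 and 0.43, and of 4 Rian probe sets 3, between -0.13 and 0.48. Without the 6 hour pair the limma adjusted p was 0.0589 for Meg3 and 0.0658 for Rian, without the 24 hour pair 0.123 and 0.13, and with arrays centred on the median that of Meg3 was 0.129.

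Mirg, a host of microRNAs in the same transcript region, read 1129, 1332 and 1432 in the DKK arrays against 1155, 1683 and 1537 with dox, and did not pass (limma adjusted p = 0.285). Dlk1, the paternally expressed gene of the domain, which encodes a transmembrane protein related to Notch ligands, was 104, 178 and 116 without dox and 122, 171 and 109.5 with it. The Dlk1 values without and with dox nearly coincided at each time (fitted difference -0.04, limma adjusted p = 0.92).

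None of the 6 tested genes around Kcnq1ot1 passed in the limma fit of the dox difference, and at an unadjusted p under 0.05 none did either. In the probe sets used for the genes, all 6 were lower at 24 than at 6 hours, without and with dox. Over all genes tested the median of this change was -0.08 in DKK and -0.03 in DKK + dox, with standard deviations of 0.55 and 0.64. Phlda2, a brake on placental growth, read 2847, 1476 and 862 in the DKK arrays against 2841, 1626 and 623 with dox. Its intensity at 24 hours was thus 0.303 times that at 6 hours in DKK and 0.219 times in DKK + dox. The changes from 6 to 24 hours in DKK and DKK + dox were -0.60 and -0.37 for Kcnq1ot1, the paternal noncoding RNA of the domain, and -0.56 and -0.14 for Tssc4. Another Kcnq1ot1 probe set above the low-signal limit on all arrays went from 61.6 to 61.0 in DKK and from 59.0 to 93.5 in DKK + dox (-0.01 and 0.52), so the direction for Kcnq1ot1 depends on the probe set. They were -0.28 and -0.23 for the tetraspanin gene Cd81, which read 3222 or more on every array. Ascl2, a trophoblast transcription factor gene, and the transporter gene Slc22a18 were dim, with -0.84 and -0.75, and -0.84 and -0.95. Kcnq1, a potassium channel gene, stayed between 13.2 and 26.9. The 6 genes were also lower at 24 hours after quantile normalization and after centring on the median, where the smallest steps were -0.08 for Cd81 in DKK and -0.05 for Tssc4 with dox. From 6 to 24 hours in DKK the markers of parietal endoderm (median -0.71), visceral endoderm (-0.44) and feeder fibroblasts (-0.49, without Dcn) were lower as well, and trophoblast genes other than Ascl2 and Phlda2 were at -0.005. With dox the medians were -0.07, -0.67, 0.09 and -0.31 in the same order. The part of these cells in the time course was not tested.

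Over time without dox, 5 members were at least 2-fold higher at 24 than at 6 hours (Calcr, Magel2, Igf2, Gnas and Ndn), beside 2.51 percent of all genes, and Phlda2 was 2-fold lower, beside 4.26 percent. With dox, 7 members were at least 2-fold higher (5.94 percent of all genes), namely the same 5 with Grb10 and Peg3, and Phlda2 was lower again (3.72 percent). The median change was 0.11 in DKK and 0.19 in DKK + dox over the members, and -0.08 and -0.03 over all genes. These are differences of 2 arrays with no test. With arrays centred on the median the median over all genes in DKK moved from -0.08 to 0.10.

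**Figure D3:**
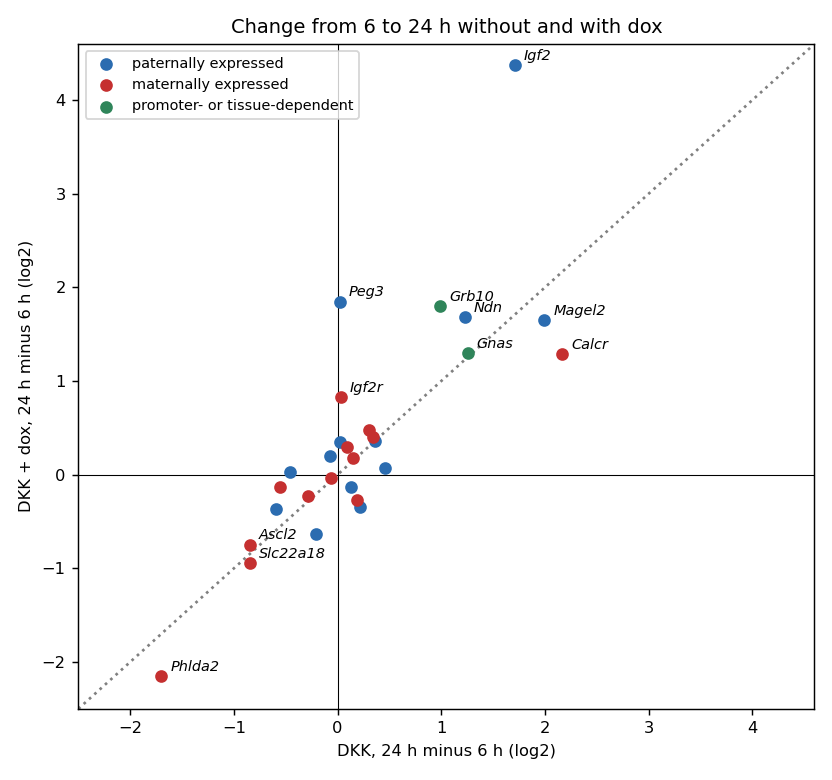
Change from 6 to 24 hours (log2 scale) in DKK on the x axis and in DKK + dox on the y axis for the 28 imprinted genes tested, coloured by parental expression, with the line of equal change dotted. Igf2 (1.71 and 4.37) and Peg3 (0.02 and 1.85) lie far above the line, Calcr (2.17 and 1.29) lies below it, and Phlda2 is lowest on both axes (-1.70 and -2.15).

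The order of events differed among the genes that were higher at 24 hours. Without dox, Igf2 gained 1.76 from 6 to 12 hours and -0.05 from 12 to 24 hours, and Calcr gained 1.63 and 0.54. Magel2 gained 1.46 and 0.53 without dox and 1.26 and 0.39 with it. With dox, Igf2 gained 2.74 and then 1.63, and Peg3 gained 1.31 and then 0.53.

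The remaining members did not pass. Mest, which encodes a protein of the alpha/beta hydrolase fold, read 502, 385 and 434 without dox and 538, 346 and 339 with it (fitted difference -0.29, limma adjusted p = 0.202). Impact, a regulator of translation, was nearly identical in both conditions, with differences of -0.01, 0.14 and -0.01. Nap1l5, related to nucleosome assembly proteins, stayed between 39.9 and 64.5. Plagl1, a zinc finger gene, exceeded the low-signal limit on 4 arrays and reached 52.0 at most, and Nnat, the neuronatin gene, was at 10.3 or less on all arrays.

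Dcn, which encodes the matrix proteoglycan decorin and is imprinted in placenta, gave opposite signs in its 2 probe sets. The slightly brighter one read 101, 82.4 and 95.7 in the DKK arrays against 60.4, 73.6 and 58.7 with dox. The other read 46.2, 51.3 and 51.7 without dox and 69.6, 40.5 and 139 with it. At 24 hours they were at -0.55 and 1.15, and neither passed in a limma fit over all probe sets (adjusted p = 0.175 and 0.121), so that no direction can be given for Dcn.

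In that fit over 26362 probe sets, 74 were of imprinted genes, of which 13 rose and 4 fell, beside 6.81 percent and 5.12 percent of all. They belonged to the same 10 genes. All 3 testable Peg3 probe sets rose, as did 3 of 11 for Meg3, 2 of 4 for Rian, 2 of 8 for Ndn, and 1 each for Igf2, Gnas and Grb10, and 2 of 3 fell for Ppp1r9a.

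**Figure D4:**
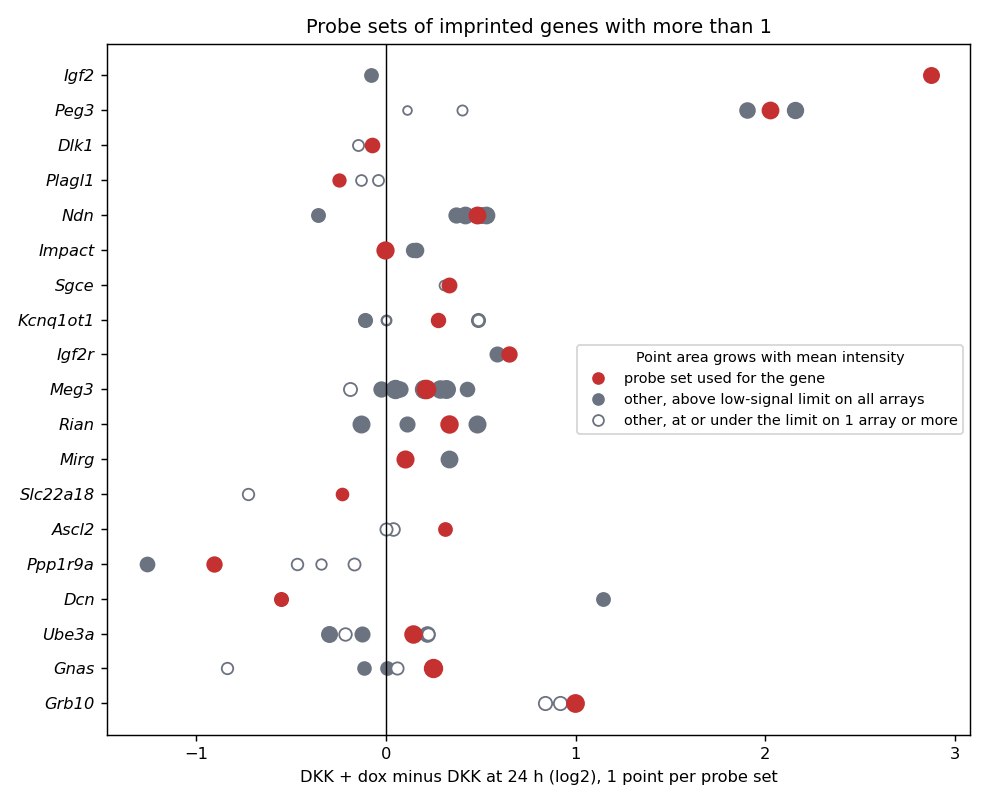
DKK + dox minus DKK at 24 hours (log2 scale) for each probe set of the 19 tested imprinted genes with more than 1, with the probe set used for the gene in red, other probe sets in grey (open where at or under the low-signal limit of 37.2 on 1 array or more) and point area growing with mean intensity. The 3 bright Peg3 probe sets lie between 1.90 and 2.15, whereas the Igf2 pair lies at -0.08 and 2.87 and the Dcn pair at -0.55 and 1.15.

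Markers of other cells that the cultures could hold moved with dox too, and their part in the values above was not tested. Of 15 pluripotency and epiblast genes none rose and 5 fell (Dnmt3b, Fgf5, Pou3f1, Sox2 and Utf1), with summed intensities at 24 hours of 43179 in DKK and 34759 in DKK + dox. The largest differences of that list at 24 hours were -1.71 for Fgf5, 0.84 for Klf4, 0.60 for Esrrb and -0.58 for Pou3f1. Of 14 parietal endoderm genes tested 6 rose, led by Sox7 (3.04 at 24 hours), Pth1r (2.48), Sox17 (2.04) and Col4a2 (1.69), and none fell, with summed intensities from 3999 to 7368 in DKK and from 5123 to 7376 in DKK + dox. Of 13 nascent mesoderm genes 6 rose, led by Gata2 (3.42), Mef2c (3.09), Kdr (2.85) and Isl1 (2.71), with sums from 1141 to 1416 in DKK and from 1484 to 4421 in DKK + dox. Mef2c exceeded the low-signal limit on the dox arrays alone, with 9.34 to 13.5 in DKK and 38.1 to 234 with dox, and was tested only through them. At 24 hours 9 of the 13 were higher with dox and 4 lower, namely Foxf1 (-0.52), Mesp2 (-0.36), Mesp1 (-0.26) and Tbx6 (-0.25). None of these 4 passed. Of 11 feeder fibroblast genes other than Dcn 4 rose (Col3a1 at 2.52, Pdgfrb at 1.67, Col5a1 at 1.10 and Fbln2) and Acta2, at 1.56, did not pass, with sums from 1367 to 2576 in DKK and from 1773 to 2452 in DKK + dox, while Lum, Postn and Prrx1 stayed under the low-signal limit on all arrays. Of 10 visceral endoderm genes Dab2 rose (1.22) and Apoe fell (-0.89), and Ttr (-0.90) and Rbp4 (0.64) did not pass, with sums from 2754 to 4609.9 in DKK and from 2274 to 4324 in DKK + dox, and Afp, Apoa2, Apob and Fgb were under the limit. Of 6 trophoblast genes other than Ascl2 and Phlda2 none passed in the limma fit (Eomes was at 1.54, Krt7 at -0.83, Esx1 at -0.30 and Tfap2c at 0.24), with sums from 455 to 526 in DKK and from 460.0 to 891 in DKK + dox. In these bulk samples a smaller share of cells expressing a gene and less RNA per cell cannot be told apart.

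The calls differ in how far they depend on single times. Calcr, Grb10, Igf2 and Peg3 passed without each pair of arrays in turn (5 members passed without the 6 hour pair, 10 without the 12 hour pair, with Phlda2 in and Gnas out, and 5 without the 24 hour pair), and without the intensity trend in limma they were the 4 that passed. Under a constant difference in place of a growing one no gene of the 14755 passed (lowest limma adjusted p = 0.0516), and 10 members and 2927 genes in all had an unadjusted p under 0.05.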

How the data were processed

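RNA from 6 cultures of A2.Snail embryoid bodies was hybridised to Affymetrix MOE430_2.0 arrays, 1 for each treatment and time. The authors normalized the arrays with dChip and deposited linear intensities with a lowest value of 1. Neither the version of dChip nor its model is given in the sources used here. Of 45037 probe sets, 34945 had 1 symbol in the platform annotation, 932 several and 9160 none, and only the first kind was used. Entrez IDs matched 34741 of them to RefSeq genes of GRCm38.p6, and 0 symbols changed.

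Each gene took the probe set with the highest mean. Genes never above 37.2 (3438 of 18193) were left out. limma 3.58.1 in R 4.3.3 fitted log2(intensity + 20.6) with 3 time coefficients and a dox coefficient proportional to hours (4 coefficients in all), moderated by eBayes along the intensity trend (prior degrees of freedom 5.5), with Benjamini-Hochberg adjustment over 14755 genes. The fit was tested on simulated data in which dox effects grew in proportion to hours, as the fit assumes. Effects of another course over time were not simulated. The number of arrays and the dim signal of many probe sets limit the precision. Alternatives changed the offset, filter, scaling, probe set choice, time model and arrays used. Every member with a probe set is named, and of each other list up to 4 tested genes with the largest difference at 24 hours. Snai1 and Hprt were named as checks. Others, such as Cdh1 and the further genes that passed, were picked after their values were seen. Members, gene lists, tests and the searched motif were chosen with earlier results of these data known. Figures were drawn with matplotlib 3.10.9.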

Additional observations from a re-analysis of the deposited data

How the results depend on the processing

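The fit pairs the arrays of each time through its time coefficients, and no block by replicate number could be added, since each group holds 1 array and the labels give no such numbers. The members that rose (7) and fell (3) were 3 and 2 when probe sets were averaged per gene, 4 and 3 with plain probe sets alone, 3 and 1 without the intensity trend, 1 and 0 with hours as a line, and 0 and 0 with a constant difference. They were 4 and 1 without the 6 hour pair, and 3 and 2 without the 24 hour pair, which is a fit on 4 arrays. The offset, the filters, quantile normalization and, added after seeing the data, a filter requiring signal on every array returned the same 10 genes, and centring on the median returned 8 of them. At a 1.5-fold threshold 4 members were higher and 2 lower with dox at 24 hours, and 4 were lower over time in DKK and 4 in DKK + dox. With an offset of 1, 3 members were 2-fold lower over time in DKK and 2 in DKK + dox, and averaging probe sets also gave 2 in DKK + dox; the added ones were dim. Of the 10 genes that passed, the difference at 24 hours turned sign in single probe sets of Igf2 (-0.08), Ndn (-0.36), Meg3 (-0.0285 and -0.19), Rian (-0.13) and Gnas (-0.12 and -0.84). The median difference at 24 hours of the paternal class, 0.02 in the main run, ran from -0.02 with quantile normalization to 0.21 with no filter. That of the maternal class, 0.13 in the main run, ran from 0.07 with plain probe sets alone to 0.14 with no filter.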

Other observations

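Of 33 imprinted genes outside the 36 described above, 4 rose with dox (Ddc, Cdkn1c, Slc38a4 and Casd1) and 2 fell (Cobl and Atp10a), which is 12.1 and 6.06 percent beside 8.32 and 6.38 percent of all genes tested, with a median of 0.15 at 24 hours beside 0.02 over all genes. Ddc and Cobl flank Grb10. Ddc, which encodes aromatic amino acid decarboxylase, read 297, 99.3 and 43.0 in the DKK arrays against 332, 184 and 235 with dox and rose by a fitted 1.85 (standard error 0.20, limma adjusted p = 0.00252). Cobl, an actin nucleator gene, read 311, 113 and 90.0 without dox and 293, 32.8 and 13.2 with it and fell (fitted difference -1.82, standard error 0.26, limma adjusted p = 0.00601). Grb10 itself was higher at each later time in DKK, whereas both neighbours were lower. Cdkn1c, the growth-restraining kinase inhibitor gene of the Kcnq1ot1 domain, read 2778, 1263 and 698 in the DKK arrays against 2731, 1398 and 1552 with dox. It shared the lower values over time of its domain in DKK but stood apart from Phlda2 at 24 hours with dox, and rose by 0.91 (standard error 0.17, limma adjusted p = 0.0128). Peg12 was at 0.93 at 24 hours and did not pass (limma adjusted p = 0.0827).

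Of 19 tested genes that maintain imprints or methylate DNA, none rose, and Dnmt3b, a de novo methyltransferase gene, fell (fitted difference -0.29, standard error 0.05, limma adjusted p = 0.0128). Its difference at 24 hours was -0.24, within the 0.58 yardstick of the 6 hour pair. Its intensity was 8775, 10464 and 11318 without dox and 8197, 8927 and 9572 with it. The largest differences of this list at 24 hours were 0.84 for Zfp57, whose protein guards methylated imprints, 0.46 for the dioxygenase gene Tet2 and 0.29 for Arid4b. None of these passed (limma adjusted p = 0.182, 0.28 and 0.161), and those of Tet2 and Arid4b also lay within the yardstick. DNA methylation itself was not measured.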
